A study of Mus musculus with 24 samples.

Results

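The genes described here are 8 cytochrome P450 genes, Cyp2b10, Cyp1b1, Cyp2e1, Cyp2j6, Cyp2j9, Cyp4b1, Cyp26b1 and Cyp27a1, and 2 epoxide hydrolase genes, Ephx1 and Ephx2, in mouse left ventricle. They are 10 of 20175 named genes on the array and 10 of the 89 genes of both families on it. The list was set with earlier results of the same arrays known, and every probe carrying 1 of these symbols in the platform annotation or in the authors' table was taken, ignoring case. This gave 16 probes, of which 13, from 9 genes, exceeded the array median (6.77 on the log2 intensity scale) on at least 6 arrays and entered the tests. Of these, 9 lay above the median on every array. Both Cyp2j6 probes, 1 of them above the median on a single array and the other on none, and the second Cyp2j9 probe, above it on no array, were left out of the tests by this filter.

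RNA was measured with 1 Illumina array per heart in 24 male mice of mixed genetic background, aged 27 to 33.5 weeks. The 11 controls are labelled wild-type (WT), and the 13 knockout (KO) mice carried a cardiac-specific deletion of EP4, a prostaglandin E2 receptor encoded by Ptger4. The labels divide the knockouts by ejection fraction (EF), the share of blood expelled per beat, into 6 with low EF (24.8 ± 6.96%, SD) and 7 with high EF (56.8 ± 10.4%, SD), against 79.5 ± 4.66% (SD) in the 11 WT mice. The sources used here do not give the promoter that drove the recombinase, or whether any WT mouse carried it.

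Cytochromes P450 are heme enzymes that place an oxygen atom into lipids, steroids, vitamins and foreign compounds, with electrons from the reductase Por in the endoplasmic reticulum or from ferredoxin in mitochondria. Some of them turn arachidonic acid into epoxides that widen coronary vessels, and others into hydroxylated products. Epoxide hydrolases open epoxides to diols: the soluble enzyme, encoded by Ephx2, acts on the fatty acid epoxides, and the microsomal enzyme, encoded by Ephx1, acts mainly on foreign compounds.

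The arrays had median raw intensities between 105.6 and 154.7. KO high EF replicate 11 stood apart, with a median correlation of 0.839 with the other arrays against 0.974 to 0.987 for the other 23, and 7.04% of the tested probes lay more than 2 log2 units from the mean of the other KO high EF hearts. For the P450 and epoxide hydrolase genes, values without it are given where leaving it out changes a reported call or moves a reported difference or slope by over 1.5 times. The tested Ptger4 probe lay between 6.72 and 7.17 in WT, 6.66 and 7.00 in KO low EF and 6.52 and 8.00 in KO high EF hearts, near the array median, and all KO hearts differed from WT by 0.08 ± 0.11 (SE, adjusted p = 0.673), so it does not check the labels. The place of this probe relative to the deleted part of Ptger4 is not known here. Myh6, Actc1 and Myl2, which mark cardiomyocytes, were above the array median on all 24 arrays. Of 5 liver markers, Alb was above it on no array, Apoc3 on 1, Apoa1 on 2, Serpina1a on 6 and Ttr on 21 (up to 7.87).

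In KO low EF hearts, Cyp1b1 and Ephx1 rose against WT, and Cyp2b10, Cyp4b1 (2 probes) and Cyp26b1 fell. These are 2 probes higher and 4 lower of 13 tested, beside 24.4% of all 25425 tested probes called in this comparison, 12.1% higher and 12.3% lower. In KO high EF hearts, Cyp1b1 and Ephx1 rose and no member fell past the threshold in limma (2 were lower at an unadjusted p under 0.05), beside 14.4% of all probes called, 8.5% higher and 5.9% lower. Without KO high EF replicate 11, 2 probes rose and 6 fell in KO low EF hearts (33.4% of all probes called, 16.4% higher and 17.1% lower), and 2 rose and 3 fell in KO high EF hearts (18.8%, with 9.33% higher and 9.42% lower), the additional lower ones being Ephx2 and Cyp2e1 in the former and Ephx2 and Cyp4b1 in the latter. Differences are log2 values ± standard error from limma, with p-values adjusted by Benjamini-Hochberg over all tested probes and a threshold of 0.05. Because the genes were chosen with these results known, the calls describe them and nothing is read from their share. In whole tissue, fewer cells of a type and less RNA per cell cannot be told apart.

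**Figure D1:**
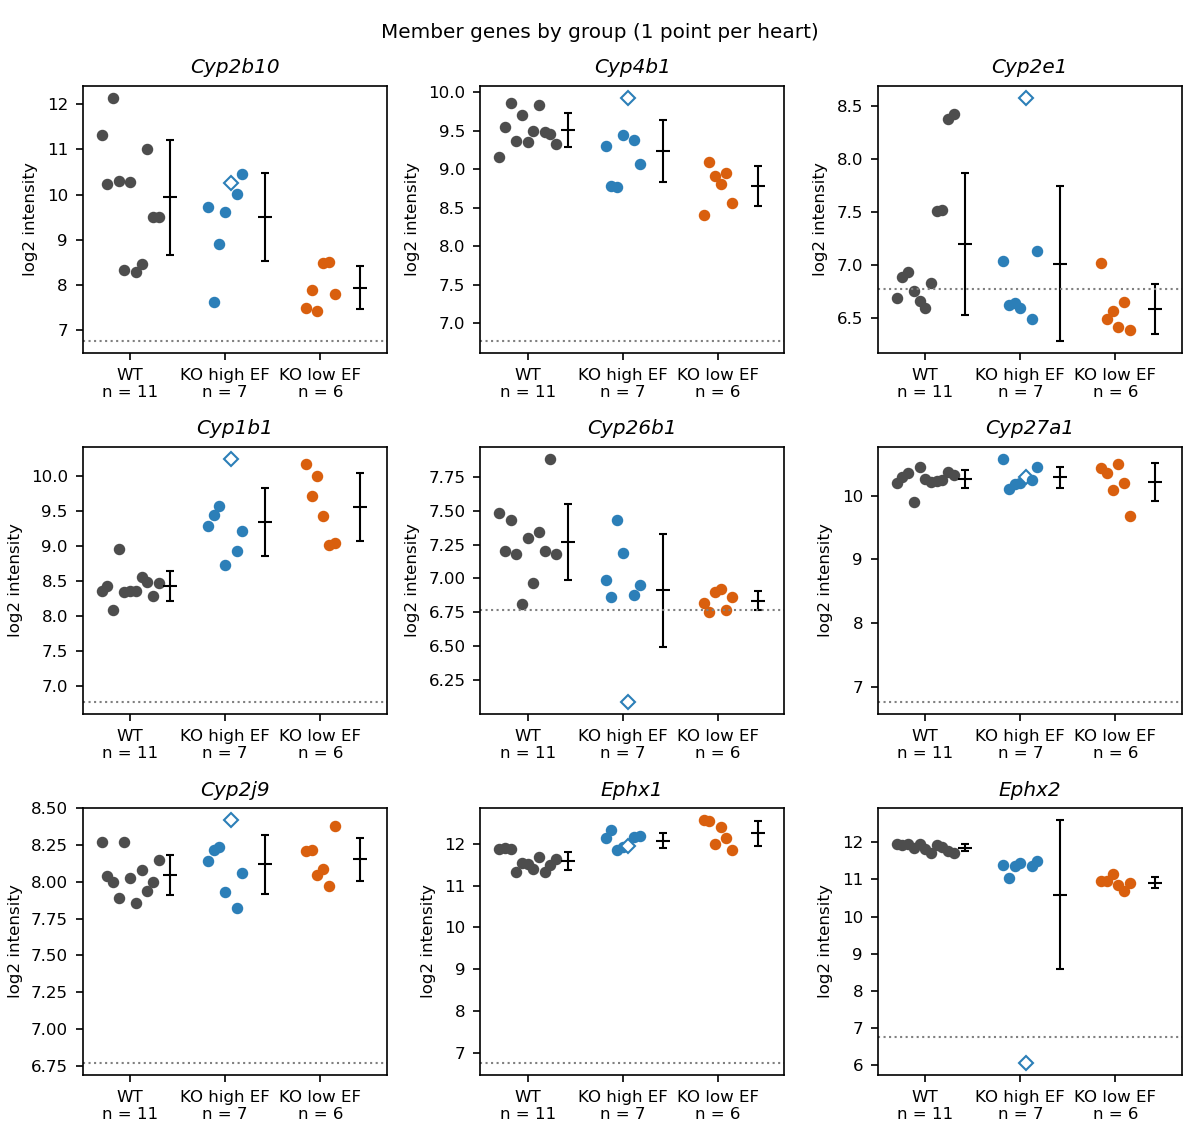
Normalized log2 intensity of 9 member genes (brightest probe of each) in every heart, by group; crosses with bars give the group mean and SD, the open diamond is KO high EF replicate 11, and the dotted line is the array median of 6.77. Every KO point for Ephx2 lies below every WT point, and for Cyp1b1 every KO low EF point lies above every WT point, whereas the groups share 1 range for Cyp27a1 and Cyp2j9.

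Ephx2, the soluble epoxide hydrolase, was lower in every knockout heart than in any WT heart. The gene lies on chromosome 14 (66084372 to 66124522, GRCm38.p6). The log2 intensity of its probe (ILMN_1226688) ran from 11.70 to 11.96 in WT (median 11.87, n = 11), from 10.70 to 11.15 in KO low EF (median 10.92, n = 6), and from 6.07 to 11.49 in KO high EF (median 11.37, n = 7). The value of 6.07 belonged to KO high EF replicate 11, where the raw intensity was 33.19, and the other 6 KO high EF hearts lay between 11.04 and 11.49. No KO value reached the WT range, and KO low EF overlapped KO high EF only through KO high EF replicate 8 (11.04) and replicate 11.

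Without replicate 11, Ephx2 fell by 0.94 ± 0.07 in KO low EF hearts (1.91-fold lower, adjusted p = 9.27e-11) and by 0.51 ± 0.07 in KO high EF hearts (1.42-fold lower, adjusted p = 9.36e-06). It was also lower in KO low EF than in KO high EF hearts, by -0.43 ± 0.08 (adjusted p = 0.00361), which made it the only family probe called between the 2 KO groups on these 23 arrays, where 2.43% of all probes were called lower. With all 24 arrays the spread widened and none of these passed: the differences were -0.94 ± 0.51 (adjusted p = 0.212), -1.26 ± 0.48 (adjusted p = 0.0875) and 0.32 ± 0.56 (adjusted p = 0.824). Within the 3 chips that held both groups, KO low EF hearts differed from WT by -1.0, -0.84 and -0.93. Chip 1 held 1 KO low EF heart and chip 3 held 1 WT heart.

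Ephx1, the microsomal epoxide hydrolase on chromosome 1 (180989556 to 181017569), went the other way. Its probe (ILMN_2664224) ran from 11.33 to 11.89 in WT (median 11.54), from 11.84 to 12.56 in KO low EF (median 12.27) and from 11.84 to 12.32 in KO high EF (median 12.13). The lowest KO hearts reached into the top of the WT range, so the groups overlapped slightly. Ephx1 rose by 0.65 ± 0.11 in KO low EF (1.57-fold, adjusted p = 8.31e-05) and by 0.48 ± 0.11 in KO high EF hearts (1.39-fold, adjusted p = 0.00297). With arrays scaled to a common median instead of quantile normalization, the latter was 0.37 with adjusted p = 0.276. On chips 1, 2 and 3 taken singly, KO low EF hearts differed from WT by 0.85, 0.27 and 0.89. Chip 1 held 1 KO low EF heart, and chip 3 held 1 WT heart. The 2 KO groups did not differ past the threshold (0.17 ± 0.12, adjusted p = 0.556). Ephx3, another epoxide hydrolase, which is not on the list, ran from 6.78 to 7.66 in WT and from 7.89 to 8.42 in KO low EF hearts, and rose by 0.76 ± 0.14 (adjusted p = 0.000136).

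Cyp1b1, which hydroxylates estrogens, retinoids and arachidonic acid and is a classic target of the aryl hydrocarbon receptor, was higher in both KO groups. It lies on chromosome 17 (79706940 to 79715061) and was measured by ILMN_1232716. WT hearts ran from 8.08 to 8.95 (median 8.36), KO low EF hearts from 9.01 to 10.17 (median 9.56) and KO high EF hearts from 8.72 to 10.24 (median 9.29). All 6 KO low EF hearts lay above all WT hearts, and among KO high EF hearts replicates 10 (8.72) and 12 (8.93) fell below the highest WT heart. Cyp1b1 rose by 1.14 ± 0.19 in KO low EF (2.20-fold, adjusted p = 3.66e-05) and by 0.92 ± 0.18 in KO high EF hearts (1.89-fold, adjusted p = 0.000623). The difference between KO groups was 0.22 ± 0.20 (adjusted p = 0.652), and 0.37 ± 0.17 without KO high EF replicate 11, which had the highest value of all hearts (adjusted p = 0.299). The increase over WT in all KO hearts was 0.84, 1.12, 1.08 and 1.13 on the 4 chips taken singly, with 1 WT heart on chip 3.

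Markers of some cell types also differed between KO and WT hearts. Of all probes, 12.1% rose and 12.3% fell in KO low EF hearts, and 8.5% rose and 5.9% fell in KO high EF hearts. In KO low EF hearts, none of 6 endothelial markers was called, and 1 of 5 tested smooth muscle and pericyte markers rose. Without KO high EF replicate 11, 1 endothelial and 2 smooth muscle and pericyte markers rose there, beside 16.4% of all probes. All 7 macrophage markers rose in both KO groups, with a summed level of 5713 to 7316 intensity units in WT, 14049 to 15417 in KO low EF and 10004 to 17112 in KO high EF hearts. Of 7 fibroblast markers, 6 rose in each KO group, and their summed level was 37904 to 48005 in WT, 52467 to 78044 in KO low EF and 50564 to 69814 in KO high EF hearts. Of 6 cardiomyocyte markers, 3 (Tnni3, Ryr2 and Pln) fell in KO low EF hearts, while Myh6, Actc1 and Myl2 did not pass the threshold. The summed levels of the 6 were 218665 to 226889 against 238073 to 260451 in WT. No defining macrophage, fibroblast or cardiomyocyte marker was under the array median on all arrays. The part of these cell types in the values of Cyp1b1, Ephx1 and Ephx2 was not tested.

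The upstream sequences of the 2 members that rose together are shown with those of Cyp2b10 and Cyp4b1, the members with the largest decreases among the P450 genes called lower in KO low EF hearts with all arrays, so that elements known to bind the receptors of these genes can be looked for. Each is the 250 bases before the RefSeq transcription start (GRCm38.p6), printed 5′ to 3′ along the gene's own strand. Capitals mark GCGTG, the core bound by the aryl hydrocarbon receptor, or its reverse complement CACGC. The regions are chr17:79715062-79715311 (minus strand) for Cyp1b1, chr1:181017570-181017819 (minus strand) for Ephx1, chr7:25897408-25897657 (plus strand) for Cyp2b10 and chr4:115647722-115647971 (minus strand) for Cyp4b1.
Cyp1b1: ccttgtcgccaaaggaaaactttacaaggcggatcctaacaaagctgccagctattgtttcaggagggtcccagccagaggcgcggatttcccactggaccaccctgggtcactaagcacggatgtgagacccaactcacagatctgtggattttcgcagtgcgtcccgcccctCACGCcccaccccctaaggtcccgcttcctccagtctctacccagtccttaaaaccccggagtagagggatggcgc
Ephx1: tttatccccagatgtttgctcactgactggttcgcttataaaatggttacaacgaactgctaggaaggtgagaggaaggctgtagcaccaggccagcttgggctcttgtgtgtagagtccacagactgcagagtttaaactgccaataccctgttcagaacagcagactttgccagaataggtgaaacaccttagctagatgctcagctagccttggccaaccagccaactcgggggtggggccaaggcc
Cyp2b10: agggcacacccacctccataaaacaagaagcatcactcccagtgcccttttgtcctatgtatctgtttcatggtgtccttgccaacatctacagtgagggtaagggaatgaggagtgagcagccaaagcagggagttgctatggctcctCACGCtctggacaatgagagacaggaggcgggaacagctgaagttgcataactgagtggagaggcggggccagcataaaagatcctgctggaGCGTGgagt
Cyp4b1: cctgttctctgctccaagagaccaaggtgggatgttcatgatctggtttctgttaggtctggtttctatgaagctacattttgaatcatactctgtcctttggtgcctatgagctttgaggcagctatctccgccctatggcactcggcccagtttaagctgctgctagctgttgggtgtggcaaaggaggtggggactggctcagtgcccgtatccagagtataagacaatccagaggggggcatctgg
Cyp1b1 holds 1 such match, whose first base is 76 bases before the start, and Cyp2b10 holds 2, at 101 and 9 bases. Ephx1 and Cyp4b1 hold none. Entries were found for 9 of the 10 members, and 3 of the 9 contain GCGTG on either strand, against 28.2% of the 32851 mouse promoter windows of this length. AGGTCA, a hexamer read by nuclear receptors, occurs in 0 of 9 (14.0% of all windows), and TGACNNNGC, the core of the antioxidant response element, in 0 of 9 (10.2%). Both strands were searched, and no match overlapped another. A match describes the letters and is not a shown binding site. Elements outside these 250 bases were not searched, so the absence of a match says nothing of sites further away.

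Of 16 listed genes of receptors that act on P450 genes, or of partners and regulators of such receptors, 14 were tested. In KO low EF hearts 3 fell and none rose, beside 12.3% and 12.1% of all probes. The median of the 14 was -0.13, against -0.007 over all tested probes. Without KO high EF replicate 11, 5 fell, beside 17.1% of all probes. The added ones were Rxra (adjusted p = 0.0233) and the glucocorticoid receptor gene Nr3c1 (adjusted p = 0.0271). Rxrg, a retinoid X receptor, fell by 1.09 ± 0.10 (adjusted p = 7e-09), Nr1i3, the constitutive androstane receptor known in liver to induce Cyp2b10, by 0.57 ± 0.12 (adjusted p = 0.000475), and Ppara, a receptor for fatty acids, by 0.56 ± 0.19 (adjusted p = 0.028). Ahrr, the repressor of the aryl hydrocarbon receptor, differed by -0.25 ± 0.11 (adjusted p = 0.118). Ahr itself did not pass the filter on dim probes.

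Cyp2b10, a P450 of the phenobarbital-inducible 2B family that also makes fatty acid epoxides, had the widest range of the members on the 23 arrays without KO high EF replicate 11. The gene is on chromosome 7 (25897658 to 25926624). Its bright probe (ILMN_2594926), which the authors' table names CYP2B20, ran from 8.28 to 12.13 in WT (median 10.23), from 7.44 to 8.52 in KO low EF (median 7.85) and from 7.62 to 10.46 in KO high EF (median 9.72). WT hearts were spread, with replicates 5, 7 and 8 between 8.28 and 8.46 and replicates 1, 3 and 9 at 11.00 or more. The 3 low WT hearts lay within the KO low EF range, while 6 of the 7 KO high EF hearts lay above it.

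In KO low EF hearts Cyp2b10 fell by 2.00 ± 0.49 (4.00-fold lower, adjusted p = 0.00323), and the differences on chips 1, 2 and 3 taken singly were -1.76, -2.00 and -2.32. Chip 1 held 1 KO low EF heart, and the chip 3 value rests on 1 WT heart, replicate 6 (10.28). The difference was -0.43 ± 0.47 in KO high EF hearts (adjusted p = 0.592) and -1.57 ± 0.54 between the KO groups (adjusted p = 0.13). On single chips, KO high EF hearts differed from WT by -2.64, 0.09, -1.02 and 0.52, with 1 KO high EF heart each on chips 1 and 2. The dim second probe (ILMN_1215955) exceeded the array median on 7 arrays and differed by -0.13 ± 0.09 in KO low EF hearts (adjusted p = 0.358).

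Cyp2b23, a near relative of Cyp2b10 in the 2B family, followed the same hearts. It ran from 6.97 to 9.66 in WT, from 6.72 to 7.18 in KO low EF and from 6.37 to 8.46 in KO high EF hearts. It fell by 1.02 ± 0.34 in KO low EF (adjusted p = 0.0301). After group means were removed, its residuals had r = 0.97 with those of Cyp2b10 over 23 arrays, without KO high EF replicate 11. The 2 genes are similar in sequence, so signal shared between their probes cannot be told apart from shared levels. The next most alike genes were Klhdc1 (r = 0.77) and Amy2a5, a pancreatic amylase (r = 0.76). Amy2a5 itself lay between 10.69 and 12.04 in WT and between 8.49 and 8.87 in KO low EF hearts.

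Cyp4b1, which hydroxylates fatty acids and activates some protoxins in lung, fell in KO low EF hearts on both of its probes. The gene is on chromosome 4 (115624698 to 115647721). On the brighter probe (ILMN_2694569), which the platform assigns to the pseudogene Cyp4b1-ps2 and the authors to Cyp4b1, WT ran from 9.15 to 9.86 (median 9.48), KO low EF from 8.40 to 9.09 (median 8.86) and KO high EF from 8.77 to 9.92 (median 9.30). On the other probe (ILMN_2790496) WT ran from 8.71 to 9.59 (median 9.10), KO low EF from 7.98 to 8.57 (median 8.38) and KO high EF from 8.33 to 9.95 (median 8.62). On either probe, all KO low EF hearts lay below all WT hearts, and KO high EF hearts overlapped both groups.

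The probes fell by 0.72 ± 0.14 (1.65-fold lower, adjusted p = 0.000389) and 0.81 ± 0.18 (1.75-fold lower, adjusted p = 0.00115) in KO low EF hearts. In KO high EF hearts the differences were -0.27 ± 0.14 (adjusted p = 0.213) and -0.32 ± 0.17 (adjusted p = 0.23). KO high EF replicate 11 had the group's highest value on both probes, 9.92 and 9.95, and without it they were -0.38 ± 0.12 (adjusted p = 0.0237) and -0.51 ± 0.12 (adjusted p = 0.00357). The 2 probes cannot be assigned to gene or pseudogene here, and their residuals correlated at r = 0.42 over 23 arrays. Of 6 lung markers, Scgb1a1, Scgb3a2 and Sftpa1 stayed at or under the array median on all arrays, while Sftpc exceeded it on 9 arrays (up to 7.34) and Sftpb and Sftpd on 3 each (up to 6.84 and 7.57). The summed level of the 6 was 494 to 584 intensity units in WT, 512 to 577 in KO low EF and 530 to 711 in KO high EF hearts. Their part in the Cyp4b1 values was not tested.

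**Figure D2:**
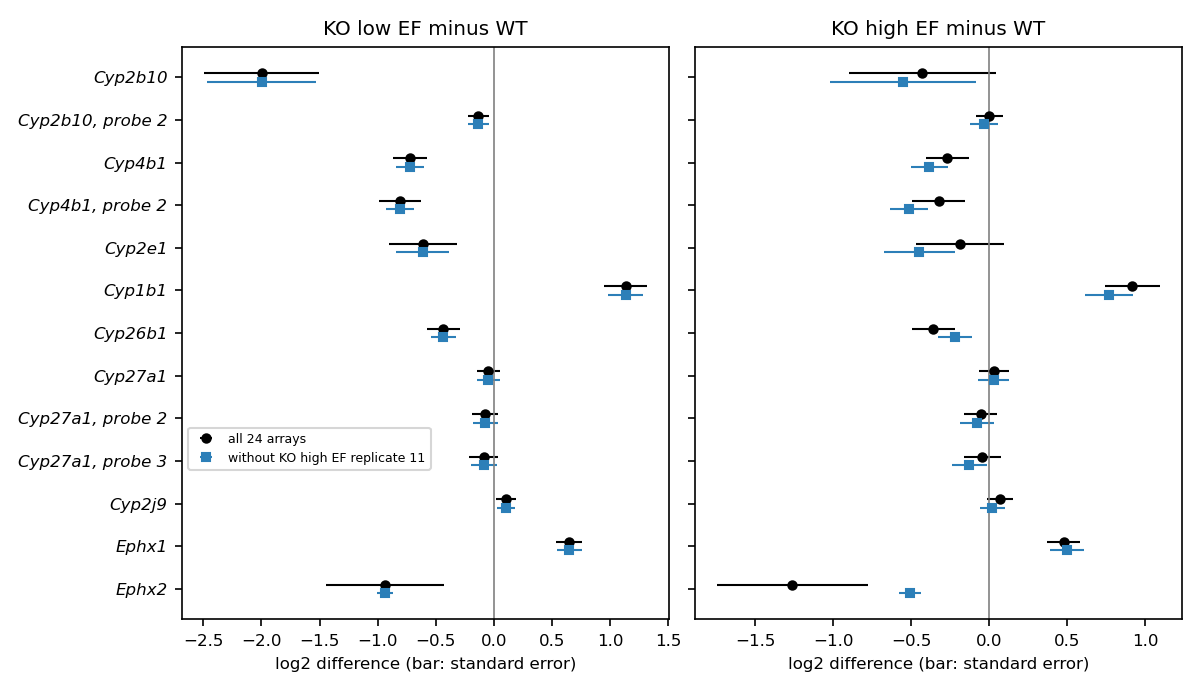
Log2 difference from WT (horizontal axis, bars are standard errors) of the 13 tested member probes in KO low EF (left) and KO high EF (right) hearts, with all 24 arrays (black circles) and without KO high EF replicate 11 (blue squares). Leaving that array out narrows the bars of Ephx2 from 0.51 to 0.07 in KO low EF hearts and moves its KO high EF value from -1.26 to -0.51.

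Cyp2e1, which oxidizes ethanol and small solvents and is abundant in liver, was dim in most hearts. It lies on chromosome 7 (140763819 to 140774990), and its probe (ILMN_2687014) exceeded the array median on 11 arrays. WT ran from 6.59 to 8.42 (median 6.88), KO low EF from 6.38 to 7.02 (median 6.52) and KO high EF from 6.49 to 8.57 (median 6.65). The bright hearts were WT replicates 8, 9, 10 and 11, at 7.51, 7.52, 8.37 and 8.42, and KO high EF replicate 11, at 8.57. The other 7 WT hearts lay between 6.59 and 6.93, within the range of the remaining KO hearts.

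The same 5 arrays had the highest summed levels of 4 genes of the atrium. The summed level of Myl7, Sln, Myl4 and Bmp10 was 8714, 4717, 27069 and 30613 intensity units in WT replicates 8 to 11 and 4421 in KO high EF replicate 11, against 420 to 950 on every other array. In KO high EF replicate 11 the sum came mainly from Myl4 (11.59) and Myl7 (10.23), while Sln, at 5.83, was at its lowest of the 24 arrays. Sln, which regulates the calcium pump in atrial muscle, was the gene whose residuals were most like those of Cyp2e1 (r = 0.93 over 23 arrays), followed by Mybphl and Myl4 (both r = 0.91). The difference of Cyp2e1 in KO low EF hearts was -0.61 ± 0.29 with all arrays (adjusted p = 0.147), -0.61 ± 0.23 without KO high EF replicate 11 (adjusted p = 0.0395), and -0.18 ± 0.11 without all 5 arrays (adjusted p = 0.267). Without these 5 arrays, KO low EF hearts still differed from WT past the threshold for Ephx2 (-0.96), Cyp1b1 (1.15) and Ephx1 (0.61). The same held for both Cyp4b1 probes (-0.71 and -0.82), Cyp26b1 (-0.36) and Cyp2b10 (-2.19). In KO high EF hearts without these arrays, the brighter Cyp4b1 probe did not pass (-0.37, adjusted p = 0.0641). The other Cyp4b1 probe did (-0.52, adjusted p = 0.00929).

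**Figure D3:**
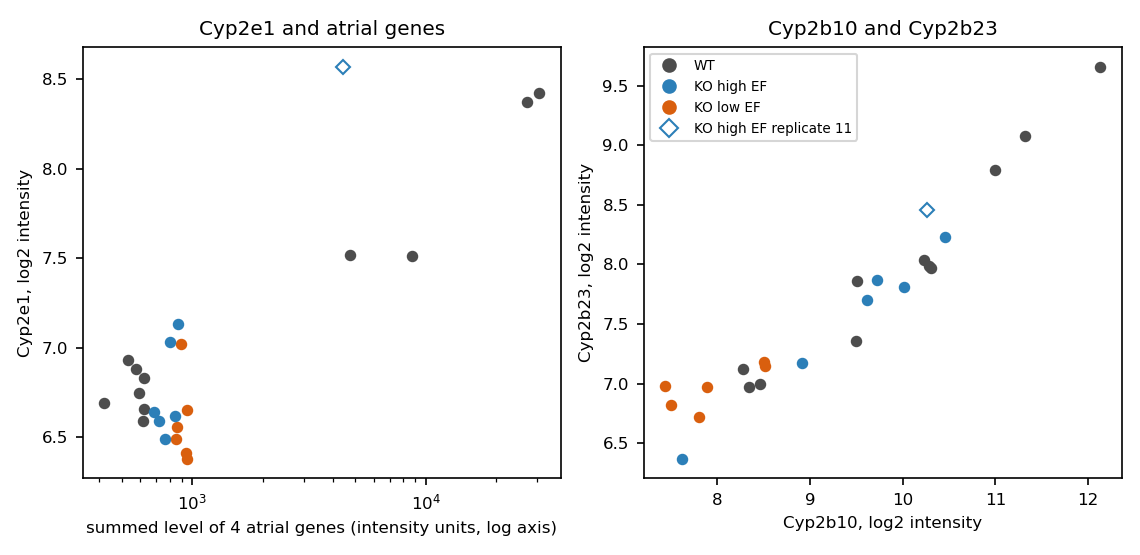
Left, Cyp2e1 (log2 intensity) against the summed level of 4 atrial genes (log axis); right, Cyp2b23 against Cyp2b10 (both log2 intensity); 1 point per heart, with KO high EF replicate 11 as an open diamond. The 5 arrays with an atrial sum of 4421 or more are the 5 with the highest Cyp2e1 values, and Cyp2b23 climbs with Cyp2b10 across WT and KO hearts.

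Cyp26b1, which breaks down retinoic acid, was close to the array median. It lies on chromosome 6 (84571414 to 84593908) and was measured by ILMN_2905120. WT ran from 6.81 to 7.88 (median 7.20), KO low EF from 6.75 to 6.92 (median 6.84), and KO high EF from 6.09 to 7.43 (median 6.95), the lowest being replicate 11. WT replicate 5 (6.81) lay within the KO low EF range. Cyp26b1 fell by 0.43 ± 0.15 in KO low EF hearts (1.35-fold lower, adjusted p = 0.0282), but adjusted p was 0.0929 with arrays scaled to a common median and 0.051 to 0.0607 without KO low EF replicate 1, 2 or 5. In KO high EF hearts the difference was -0.36 ± 0.14 (adjusted p = 0.0893), and -0.22 ± 0.11 without replicate 11 (adjusted p = 0.184).

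Of 16 genes of retinoic acid supply and response, 12 were tested, and in KO low EF hearts 5 rose and 1 fell. Of all probes, 12.1% rose and 12.3% fell. The retinoic acid producing enzymes Aldh1a3 and Aldh1a2 rose by 1.37 ± 0.26 (adjusted p = 0.000265) and 1.01 ± 0.21 (adjusted p = 0.00048), and Rarres2 by 0.37 ± 0.10 (adjusted p = 0.00537). The median of the 12 was 0.19, against -0.007 over all tested probes.

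Cyp27a1, the mitochondrial sterol 27-hydroxylase of bile acid and oxysterol synthesis, gave closely similar values in all groups. It lies on chromosome 1 (74713148 to 74737897) and had 3 tested probes, all above the array median on every array. On the brightest (ILMN_2960108), WT ran from 9.90 to 10.44 (median 10.26), KO low EF from 9.68 to 10.50 (median 10.27) and KO high EF from 10.10 to 10.57 (median 10.24). The group ranges overlapped on all 3 probes. KO low EF hearts differed from WT by -0.05 ± 0.10, -0.07 ± 0.11 and -0.09 ± 0.13 (adjusted p = 0.827, 0.744 and 0.731). Residuals of Cyp27a1 were most like those of the serine protease gene Htra3 (r = 0.89), Pcsk6 (r = 0.84) and Scara5 (r = 0.82) over 23 arrays.

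Among 11 tested genes of sterol efflux and oxysterols, 5 rose and 2 fell in KO low EF hearts, with a median of 0.27. Of all probes, 12.1% rose and 12.3% fell, with a median of -0.007. Ch25h, which makes 25-hydroxycholesterol, rose by 1.28 ± 0.20 (adjusted p = 2.3e-05), Soat1, which esterifies cholesterol, by 0.84 ± 0.12, Star, which moves cholesterol into mitochondria, by 0.98 ± 0.16, and Apoe by 1.01 ± 0.17. Cyp7b1, which hydroxylates oxysterols and is not on the list, rose by 0.59 ± 0.13 in KO low EF (adjusted p = 0.00121) and by 0.78 ± 0.12 in KO high EF hearts. WT hearts had 7.40 to 7.81 for Cyp7b1, and KO low EF hearts 7.88 to 8.61, without overlap.

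Cyp2j6 and Cyp2j9 belong to the 2J family, whose members make epoxides from arachidonic acid, and lie side by side on chromosome 4 (96516138 to 96564305 and 96568424 to 96592523). The 2 Cyp2j6 probes (ILMN_2636302 and ILMN_2559852) ranged from 5.85 to 6.77 over all hearts, at or under the array median on all but 1 array, and were not tested. The bright Cyp2j9 probe (ILMN_2719908) ran from 7.86 to 8.27 in WT (median 8.03), from 7.98 to 8.38 in KO low EF (median 8.15) and from 7.82 to 8.42 in KO high EF (median 8.14). The ranges overlapped, and the differences were 0.11 ± 0.09 (adjusted p = 0.448) and 0.07 ± 0.08 (adjusted p = 0.608), the latter being 0.02 ± 0.08 without KO high EF replicate 11. Of 8 tested genes that release arachidonic acid or oxidize it by other routes, Alox5ap, which presents the acid to 5-lipoxygenase, rose by 0.92 ± 0.14 (adjusted p = 1e-05) and Alox12, a lipoxygenase, fell by 0.60 ± 0.14 (adjusted p = 0.0023) in KO low EF hearts. Alox5 (-0.34 ± 0.14) and the cyclooxygenase gene Ptgs1 (0.24 ± 0.11) did not pass with all arrays, and Alox5 had adjusted p = 0.0436 without KO high EF replicate 11.

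Against EF within the 13 knockouts, Cyp2b10 was the 1 member called, with a higher level at higher EF, beside 2.92% of all probes called in that direction. It gained 0.51 ± 0.13 log2 units per 10 points of EF (adjusted p = 0.0212). The 6 KO hearts with EF of 13.7 to 34.0% lay at 7.44 to 8.52, and the KO hearts with EF of 45.9 to 76.4% at 7.62 to 10.46, with replicate 8 (EF 47.2%) the lowest of these. The adjusted p was 0.132 with chip as a block, 0.0537 on the authors' normalized values and 1 when each KO group had its own intercept. In WT the slope was 1.47 ± 0.56 (adjusted p = 0.666), and the slopes of KO and WT differed by -0.96 ± 0.57 (adjusted p = 0.954).

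Ephx2 had a KO slope of 0.11 ± 0.02 per 10 points without replicate 11 (adjusted p = 0.00378, beside 3.29% of all probes called in that direction) and of -0.12 ± 0.16 with it (adjusted p = 0.738). The slope of Cyp1b1 was -0.09 ± 0.06 (adjusted p = 0.429), and those of the 2 Cyp4b1 probes were 0.13 ± 0.05 (adjusted p = 0.116) and 0.15 ± 0.05 (adjusted p = 0.12). Without replicate 11 these were -0.14 ± 0.05 for Cyp1b1 (adjusted p = 0.0633) and 0.093 for both Cyp4b1 probes (adjusted p = 0.188 and 0.164). The KO groups were split by EF, so the slope and the comparison of KO groups are not separate evidence. No member had a WT slope or a slope difference past the threshold in limma (2 and 1 at an unadjusted p under 0.05), with 0.00393% and 0% of all probes called.

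**Figure D4:**
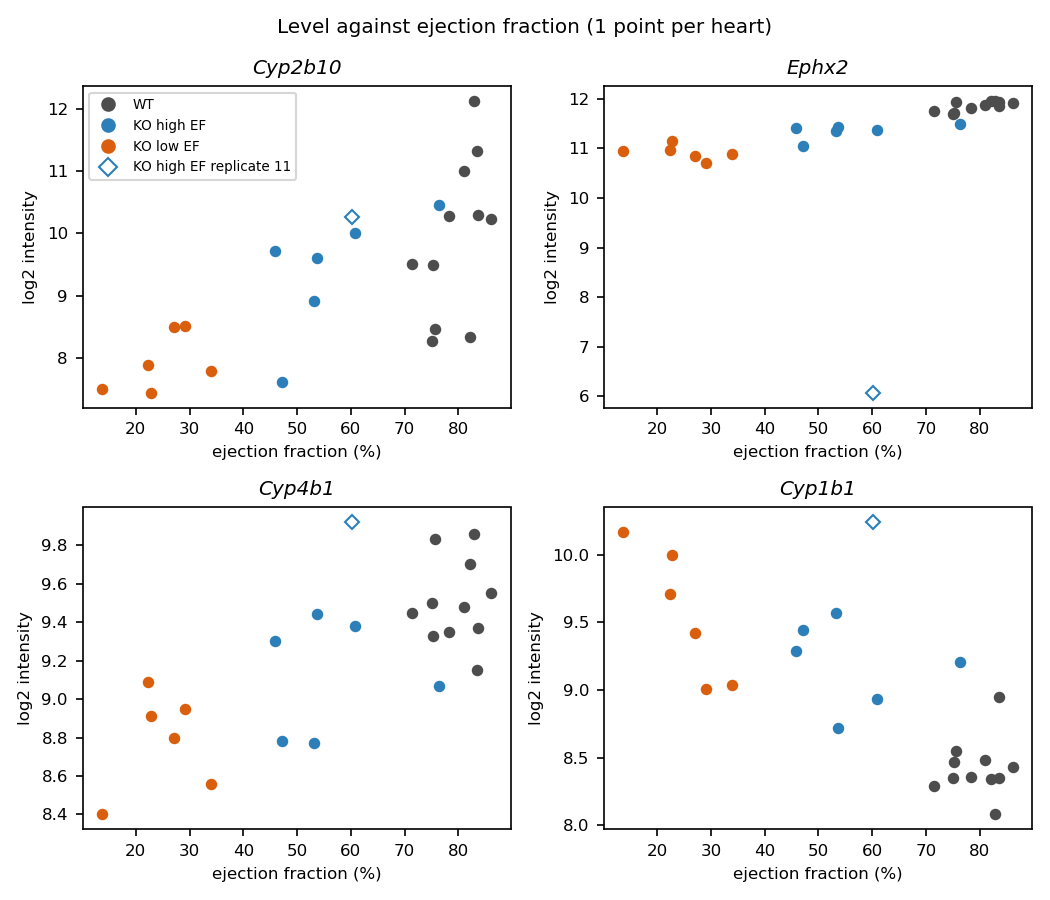
Log2 intensity of Cyp2b10, Ephx2, Cyp4b1 (brighter probe) and Cyp1b1 against ejection fraction (%), 1 point per heart, with WT in grey, KO high EF in blue, KO low EF in orange and KO high EF replicate 11 as an open diamond. Cyp2b10 in KO low EF hearts stays at or below 8.52 while 6 of 7 KO high EF hearts reach 8.91 or more, and WT hearts span 8.28 to 12.13 at high EF.

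The remaining 30 tested genes of the 2 families (35 probes) serve as a comparison that was not picked one by one. In KO low EF hearts, 4 of their probes rose (Ephx3, Cyp4v3, Cyp7b1 and Cyp4f13) and 1, Cyp2b23, fell, which is 14.3% against 24.4% of all probes. Cyp4v3 and Cyp4f13, of the fatty acid hydroxylating family 4, rose by 0.46 ± 0.08 and 0.55 ± 0.12. In KO high EF hearts 5 rose (Ephx3, Cyp4v3, Cyp7b1, Cyp20a1 and Cyp4f16) and none fell past the threshold, which is 14.3% against 14.4% of all probes. Without KO high EF replicate 11, 7 probes rose in KO low EF hearts, with Cyp20a1 and 2 Cyp4f16 probes added, and 1 fell. This is 22.9% called, against 33.4% of all probes. In KO high EF hearts without that array 3 rose, which is 8.57% against 18.8% of all probes. There the adjusted p of Cyp20a1 was 0.0612 and that of Cyp4f16 0.0501. Between KO groups no probe of either family passed in limma with all arrays (1 was higher and 4 lower at an unadjusted p under 0.05), beside 2.92% of all probes.

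Por, which feeds all microsomal P450 enzymes, differed by -0.04 ± 0.14 in KO low EF hearts (adjusted p = 0.904). Of 8 tested donors and partners 3 rose, beside 12.1% of all probes. They were Cyb5r3, a cytochrome b5 reductase (1.04 ± 0.09, adjusted p = 8.25e-09), Cyb5r1 (0.32 ± 0.12, adjusted p = 0.0426) and Pgrmc2 (0.20 ± 0.07, adjusted p = 0.0243). Cyb5a differed by 0.18 ± 0.11. Of 23 tested genes of conjugation and other detoxification steps, 10 fell and 1 rose in KO low EF hearts, with a median of -0.29. Of all probes, 12.3% fell and 12.1% rose, with a median of -0.007. The carboxylesterase gene Ces1d fell by 2.83 ± 0.24, and the glutathione transferase genes Mgst3 and Gstt1 by 0.61 ± 0.07 and 0.62 ± 0.13. Hmox1, heme oxygenase, rose by 0.78 ± 0.16 (adjusted p = 0.000569).

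The members themselves did not vary as 1 unit. After group means were removed, the largest correlations between 2 different member genes over 23 arrays were between Ephx1 and the 3 probes of Cyp27a1 (r = 0.58 for the brightest, and 0.71 and 0.75 for the others), and Cyp2b10 and Ephx2, both lower in KO low EF hearts, had r = 0.34. These values share arrays and normalization and are descriptions only. The genes most like each of the others were Kif3c for Ephx1 (r = 0.86), Vav2 for Cyp2j9 (r = 0.83), Ackr2 and Sox17 for Cyp1b1 (both r = 0.77), Eya2 for Cyp4b1 (r = 0.76), Ubb for Cyp26b1 (r = 0.74) and Tfdp2 for Ephx2 (r = 0.73).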

How the data were processed

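The authors deposited an unnormalized table of linear fluorescence intensity for 45281 probes on 24 arrays, a normalized table on a log2 scale, and a summary table. In the latter the authors give, per probe, log2 means of the groups, their standard deviations (a unit other than a level) and a p-value from a test that is not stated. Per the submitters' processing notes, BeadStudio and R 2.8.0 were used, with settings not given in the sources used here. No detection p-values were used.

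In limma 3.58.1 (R 4.3.3), intensities had background removed by normexp with an offset of 50, were put on a log2 scale and were then quantile-normalized. A probe was tested if it exceeded the median of its array on at least 6 arrays. This kept 25425 probes. Symbols came from the platform annotation for 34885 probes and from the authors' summary table, joined through identical group means and SDs (tolerance 2e-06), for 2359 more; 8037 stayed unnamed.

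One limma fit held the 3 group means, and another the EF slopes per 10 points within KO and within WT. Tests were two-sided and adjusted by Benjamini-Hochberg over all tested probes. On simulated data for KO low EF against WT (25425 probes), 78 of 100 probes changed by 0.5 on the log2 scale were recovered. Of 100 changed by 1, 96 were recovered, and there were 6 false calls. The simulation changed a far smaller share of probes than the 24.4% called in the measured data. Its recovery does not describe probes whose spread KO high EF replicate 11 widened. With all arrays, Ephx2 differed by -0.94 ± 0.51 in KO low EF hearts and was not called in limma (adjusted p = 0.212). Chips were read from the prefix of the array labels. Nothing in the labels pairs WT and KO mice of 1 replicate number, and the deviations of same-numbered arrays correlated at -0.011 to 0.183, above 0.1 in 2 of 11 pairs. P-values test group differences or slopes against the spread between these mice. The number of arrays limits the precision, and there is no read depth.

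The member genes and all lists were chosen with earlier results of these data known. All probes of the members are given. Of other P450 and epoxide hydrolase genes, up to 5 called per comparison and direction are named, of each other list up to 4 with the smallest p in KO low EF against WT, and up to 3 genes most alike in residuals. Some genes that this rule names are not reported here. Other family genes set beside a member were named after their values were seen. Alternatives were no filter, median scaling, no background correction, an offset of 16, the authors' values, chip or age in the model, array weights, the replicate block and leaving out each array. Gene positions and promoters came from RefSeq (GRCm38.p6), and probe positions were not used here.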

Additional observations from a re-analysis of the deposited data

Results flagged for a closer look

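Of 26 sets of values tested for a sample far from the others (13 probes in the 2 KO groups, with Dixon's test), 3 stood out, and chance gives about 1 in 20. All 3 belonged to KO high EF replicate 11. Its Ephx2 value was 6.07 against 11.04 for the next lowest KO high EF heart. Its Cyp26b1 value was 6.09, with the next lowest at 6.86. Its Cyp2e1 value was 8.57, with the next highest at 7.13. The cause of these values was not tested.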

How the results depend on the processing

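Of 48 tested family probes, 11 were called for KO low EF against WT, 7 for KO high EF against WT and 0 between KO groups. Of all probes, 24.4%, 14.4% and 2.92% were called in these comparisons. For the EF slope within KO 1 family probe was called, beside 2.92% of all probes called higher. For all KO against WT 15 were called, and nothing is read from them, as the share of all probes is not given here. Family counts on leaving out each array were 9 to 16 for KO low EF against WT and 6 to 9 for KO high EF against WT. They were 0 to 1 between KO groups, 13 to 18 for all KO against WT and 0 to 2 for the slope. Array weights gave 17 for KO low EF against WT, 3 between KO groups and 6 for the slope. For KO high EF against WT, median scaling gave 3 and the replicate block gave 3. Median scaling, the authors' values, chip as a block and separate KO intercepts each gave 0 for the slope. Of the alternatives chosen after seeing the data, chip as a block, the authors' values and separate intercepts, each without KO high EF replicate 11, gave 3, 2 and 0 for the slope, and the first 2 gave 1 between KO groups. Leaving out the 5 arrays with high atrial markers gave 2 for the slope and 1 between KO groups.

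Ephx2 turned its sign with KO high EF replicate 11. Between KO groups it was 0.32 with all arrays, -0.44 with array weights, -0.42 with chip as a block and -0.41 on the authors' values without that array, and -0.43 without the 5 arrays. Leaving out each array gave -0.43 to 0.47. Its slope was -0.12, against 0.107 with array weights, and 0.114, 0.108 and 0.113 in the same 3 alternatives, with -0.26 to 0.11 on leaving out each array. Within chip 4, which held no KO low EF heart, all KO differed from WT by 0.52 for Cyp2b10 and 0.025 for Cyp4b1 (ILMN_2694569), against -1.21 and -0.50 over all chips. Among all member results, 46 alternatives brought a call without a change of sign and 20 ended one. In 10 others, all for Ephx2, the sign turned and a call was brought. The cause was not tested. A replicate block changed the Cyp26b1 call in KO low EF hearts (adjusted p = 0.0851).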
